A study of Mus musculus with 16 samples.

Results

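The 32 genes described here cover mitochondrial fatty acid oxidation and its link to ketone body production in the liver, together with Ppara, the nuclear receptor known to drive many of them. They were taken by symbol from tables of 16 liver libraries that held 17410 genes in all, and all 32 were found with a value in every library. The livers fell into 4 groups of 4. LKO_NASH (livers 21 to 24) and WT_NASH (livers 17 to 20) were mice with Chrebpα-flox/flox alleles in both groups, given AAV-TBG-Cre in LKO_NASH and AAV-TBG-GFP in WT_NASH, and kept for 12 weeks on a NASH diet with 40 kcal% fat, 20 kcal% fructose and 2% cholesterol. TBG is a promoter active in hepatocytes, so Cre recombinase and the deletion it causes were directed to that cell type while other liver cells kept the floxed gene. Ad_Chrebpa_HFLMCD (livers 13 to 16) and Ad_GFP_HFLMCD (livers 9 to 12) were wildtype mice, 2 months old, on an HFLMCD diet with 45 kcal% fat, no choline and 0.1% added methionine for 3 weeks. They received an adenovirus for Chrebpα or for GFP 1 week before dissection. The study asked how ChREBPα, 1 of the isoforms made from Mlxipl, the gene of a sugar-sensing transcription factor, shapes diet-induced fatty liver.

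Fatty acids are burnt in mitochondria after they are activated to acyl-CoA, exchanged onto carnitine by CPT1A at the outer membrane, carried across the inner membrane and returned to acyl-CoA by CPT2. A repeating cycle of dehydrogenation, hydration, dehydrogenation again and thiolysis then shortens the chain, with electrons passed through the electron-transferring flavoprotein to the respiratory chain. In the fasted or fat-fed liver much of the acetyl-CoA is turned into ketone bodies for other tissues, and PPARα, bound by fatty acids and paired with RXR, is the best-known activator of these genes. ChREBP is best known for the opposite arm, the induction of glycolysis and fat synthesis by sugar.

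The libraries held 21254937 to 40327264 expected counts, which are estimated reads or fragments per gene. Mlxipl had 209 to 422 normalised CPM (counts scaled to library size, with the trimmed mean of M values over the 16 libraries) in the livers labelled LKO_NASH and 250 to 376 in WT_NASH, a log2 fold change of 0.05 (95% interval -0.49 to 0.60). It had 138 to 150 CPM in the livers labelled Ad_Chrebpa_HFLMCD and 116 to 147 in Ad_GFP_HFLMCD, a log2 fold change of 0.15 (-0.02 to 0.31). These totals over the whole gene do not check the labels, since which exon was removed is not stated in the labels, and transcripts from the vector's insert may not be counted. In a principal component analysis of the NASH livers, liver 21 lay at -27.1 on component 1 (42.8% of the variance), away from 28.6 to 35.4 for livers 22 to 24 and within -41.7 to 3.02 for WT_NASH. Among the HFLMCD livers, liver 14 lay at 10.3, against 24.1 to 28.1 for the rest of Ad_Chrebpa_HFLMCD and -23.3 to -21.3 for Ad_GFP_HFLMCD. All 10 hepatocyte markers were found in every group, with summed levels of 105817 to 137336 CPM in LKO_NASH, 145892 to 168464 in WT_NASH, 69432 to 82577 in Ad_Chrebpa_HFLMCD and 60372 to 78389 in Ad_GFP_HFLMCD. Of 5 adipocyte and muscle markers none passed the expression filter in any of the 3 comparisons.

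The genes were among the well expressed ones. Together the 32 genes took 0.851% to 1.13% of all expected counts in LKO_NASH, 0.765% to 0.952% in WT_NASH, 0.819% to 0.868% in Ad_Chrebpa_HFLMCD and 0.764% to 0.818% in Ad_GFP_HFLMCD. On FPKM, the deposited level per kilobase of transcript, the mean over 16 livers ran from 6.32 for Pdk4 to 378 for Acaa2, and the lowest expected count of any member in any liver was 160.1, for Pdk4. Acaa2, the thiolase that ends each turn of the cycle for medium and long chains, had 329 to 489.6 FPKM over the 16 livers. Acsl1, the main acyl-CoA synthetase of liver, averaged 461 ± 74.4 FPKM in LKO_NASH, 409 ± 67.6 in WT_NASH, 210.0 ± 22.6 in Ad_Chrebpa_HFLMCD and 166 ± 15.6 in Ad_GFP_HFLMCD (SD, n = 4 each), so it ranked 1 of 32 in both NASH groups, 3 in Ad_Chrebpa_HFLMCD and 6 in Ad_GFP_HFLMCD. Hadh, Cpt1a, Acadm and Etfb followed with means of 177 to 199.8 FPKM over all livers and overlapping ranges. Hadha and Hadhb, which encode the α and β subunits of the mitochondrial trifunctional protein, averaged 124 and 126 FPKM. The lowest members after Pdk4 were Acad8, a dehydrogenase of valine breakdown, at 11.7 to 17.2 FPKM, and Slc22a5, the carnitine transporter of the cell membrane, at 10.1 to 24.3 FPKM. Ppara ranked 24 of 32 in LKO_NASH, 19 in WT_NASH, 25 in Ad_Chrebpa_HFLMCD and 27 in Ad_GFP_HFLMCD. Ucp2 had the widest change of rank between the NASH and the HFLMCD groups. It ranked 29 in both NASH groups, at 33.8 ± 4.48 FPKM in LKO_NASH and 19.8 ± 3.84 in WT_NASH, but 12 in Ad_Chrebpa_HFLMCD at 119.9 ± 15.1 and 7 in Ad_GFP_HFLMCD at 153 ± 18.5.

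**Figure D1:**
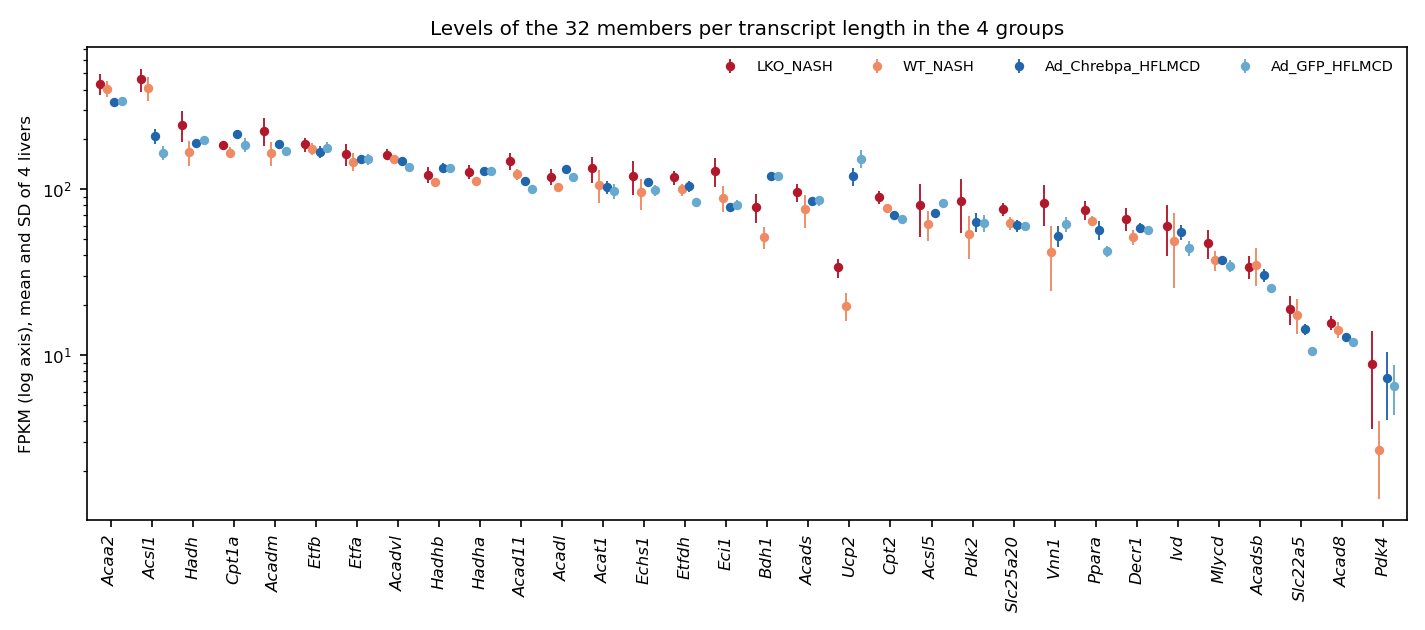
Level of each of the 32 members per transcript length (FPKM, log axis) in the 4 groups, with points for the mean and bars for the SD of 4 livers. Members run from Acaa2 (mean 378 FPKM over 16 livers) on the left to Pdk4 (6.32 FPKM) on the right, and Ucp2 and Bdh1 lie lower in both NASH groups than in both HFLMCD groups.

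Within a group many members had the same liver as their lowest or highest, while the width of their spread differed. Liver 21 was the lowest of LKO_NASH for 21 of 32 members and the highest for 6, and liver 20 was the lowest of WT_NASH for 17 members. In Ad_GFP_HFLMCD liver 10 was the lowest for 24 members and liver 9 the highest for 20. Ivd, the isovaleryl-CoA dehydrogenase of leucine breakdown, spread most widely among the dehydrogenases. It had 75.0, 180.5, 169 and 144 CPM in LKO_NASH livers 21 to 24, and 129.5, 219, 119 and 58.4 CPM in WT_NASH livers 17 to 20. Hadha was even, at 511 to 601 CPM in LKO_NASH and 547 to 569 CPM in WT_NASH.

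The question of hepatocyte ChREBPα loss under the NASH diet was addressed by comparing livers labelled LKO_NASH with WT_NASH. No member passed an adjusted p of 0.05, as was the case for all 12786 genes tested (0% called by edgeR's quasi-likelihood test with Benjamini-Hochberg adjustment). At an unadjusted p of 0.05, 5 members were on the higher side in LKO_NASH, namely Ucp2, Pdk4, Bdh1, Vnn1 and Eci1, beside 7.7% of all genes, and none were on the lower side, beside 5.88% of all genes. DESeq2 called 1 member higher, Ucp2, beside 0.607% of its genes. A log2 fold change above 0 was found for 24 of 32 members, beside 51.5% of all genes, with a median of 0.11 over the members and 0.01 over all genes. On log2(FPKM + 1) the median was 0.26 over the members and 0.10 over all genes, with 31 of 32 above 0, beside 74.3% of all genes, and none was called. Without liver 20 the members' median was 0.043, with 21 of 32 above 0, and without liver 22 it was 0.067. The 6 members with the lowest p were Ucp2, Pdk4, Bdh1, Vnn1, Eci1 and Hadh, with log2 fold changes of 0.38 for Eci1 to 1.58 for Pdk4, none of them called.

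Ppara, the receptor itself, had 532, 655, 692 and 652 CPM in LKO_NASH livers 21 to 24, and 631, 683, 551 and 569.6 CPM in WT_NASH livers 17 to 20. The groups overlapped, and the log2 fold change was 0.06 ± 0.13 (SE, adjusted p = 0.813). Cpt1a, which encodes the rate-controlling carnitine palmitoyltransferase of the outer membrane, had 966, 882, 1007 and 878 CPM in LKO_NASH and 1051, 980.3, 813 and 905 CPM in WT_NASH. Here the log2 fold change was 0.00 ± 0.12 (adjusted p = 0.99, 95% interval -0.28 to 0.28), and its sign turned under several alternatives. The other 6 genes of activation and import had log2 fold changes of -0.04 for Slc22a5 to 0.24 for Acsl5. The 5 acyl-CoA dehydrogenases of fatty acids ranged from -0.07 for Acadvl to 0.28 for Acadm, and the 3 of branched-chain amino acid breakdown from -0.20 for Acadsb to 0.12 for Ivd. In electron transfer the log2 fold changes were -0.06 for Etfb, -0.0065 for Etfa and 0.09 for Etfdh. None of these genes passed the test, and the lowest adjusted p among them was 0.46, for Acadm.

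Hadh, the hydroxyacyl-CoA dehydrogenase for medium and short chains, had 359, 539.6, 593 and 527 CPM in LKO_NASH, and 327, 433, 446 and 338 CPM in WT_NASH. Livers 22 to 24 lay above every WT_NASH liver and liver 21 did not, with a log2 fold change of 0.39 ± 0.19 (adjusted p = 0.384). The other 4 genes of hydration, the second dehydrogenation and thiolysis had log2 fold changes of -0.07 for Acaa2 to 0.17 for Echs1. Eci1 encodes an enoyl-CoA isomerase that lets unsaturated chains enter the cycle. It had 124, 162, 166 and 181 CPM in LKO_NASH and 107, 142, 142 and 99.8 CPM in WT_NASH, where again liver 21 was the only LKO_NASH liver within the range of WT_NASH (log2 fold change 0.38 ± 0.17, adjusted p = 0.367). Decr1, the dienoyl-CoA reductase of the same group, had a log2 fold change of 0.21 ± 0.13 (adjusted p = 0.46).

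Bdh1, the dehydrogenase that turns acetoacetate into hydroxybutyrate, had 237, 306, 252 and 327 CPM in LKO_NASH, and 184, 206, 243 and 194 CPM in WT_NASH. Only liver 21 lay below the highest WT_NASH liver, and the log2 fold change was 0.45 ± 0.14 (adjusted p = 0.338). Acat1, the thiolase that makes acetoacetyl-CoA, had a log2 fold change of 0.17 ± 0.19 (adjusted p = 0.664).

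The 4 genes of fuel choice and PPARα-linked metabolism all lay above 0, with a median log2 fold change of 0.72. Ucp2, a carrier of the inner mitochondrial membrane that is known to be abundant in macrophages, had 69.8, 53.8, 56.1 and 64.8 CPM in LKO_NASH, and 45.1, 30.1, 39.6 and 45.1 CPM in WT_NASH. The groups did not overlap, as was true on the higher side for 1 of 32 members and 2.81% of all genes, and on the lower side for 0 members and 3.25% of all genes. Its log2 fold change was 0.62 ± 0.14 (adjusted p = 0.305), and it was called by DESeq2 (0.61, adjusted p = 0.0249) and in 1 fit of all 16 libraries (0.62, adjusted p = 0.0393), which called 0.727% of all genes on the higher side. Pdk4 encodes a kinase that shuts off pyruvate dehydrogenase when fat is burnt. It had 62.6, 31.7, 9.86 and 36.6 CPM in LKO_NASH, and 7.84, 10.1, 9.78 and 19.5 CPM in WT_NASH. Liver 23 fell inside the WT_NASH range while the other LKO_NASH livers lay above it, and the log2 fold change of 1.58 ± 0.49 had an adjusted p of 0.337. Vnn1, a pantetheinase of coenzyme A turnover and a known PPARα target, had 211, 257, 164 and 287 CPM in LKO_NASH and 95.6, 155, 195 and 78.5 CPM in WT_NASH (log2 fold change 0.81 ± 0.30, adjusted p = 0.356). Pdk2, the other kinase, had 110.2, 259, 289 and 227 CPM in LKO_NASH and 115, 211, 182 and 124 CPM in WT_NASH (0.50 ± 0.31, adjusted p = 0.463).

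When liver 21 was dropped, 166 genes passed on the higher and 254 on the lower side by edgeR. None was a member, and the closest members were Ucp2 (0.55, adjusted p = 0.0609), Bdh1 (0.52, 0.0653), Hadh (0.52, 0.0756), Pdk2 (0.72, 0.0864) and Eci1 (0.48, 0.0894). With livers 19 and 21 both left out, Bdh1 (0.61, adjusted p = 0.0315) and Hadh (0.60, adjusted p = 0.0455) passed on the higher side, 2 of 32 members beside 4.84% of all genes. On component 1 these livers are the ones of their groups nearest to the other group, so leaving them out widens the group difference by its construction, and nothing is read from these calls. Beside Ucp2, all 10 macrophage and Kupffer cell markers had a log2 fold change above 0 (median 0.79), summing to 211 to 565 CPM in LKO_NASH and 177 to 358 CPM in WT_NASH with no marker at 0. At an unadjusted p of 0.05, 6 of the 10 were on the higher side, with none called by edgeR or DESeq2. The 10 hepatocyte markers had a median of -0.28, with 2 on the lower side at an unadjusted p of 0.05, none called by edgeR and 1, Serpina1a, called lower by DESeq2. The part of these shifts in the values of the members was not tested, and in bulk liver fewer cells of a type and less RNA per cell cannot be told apart.

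**Figure D2:**
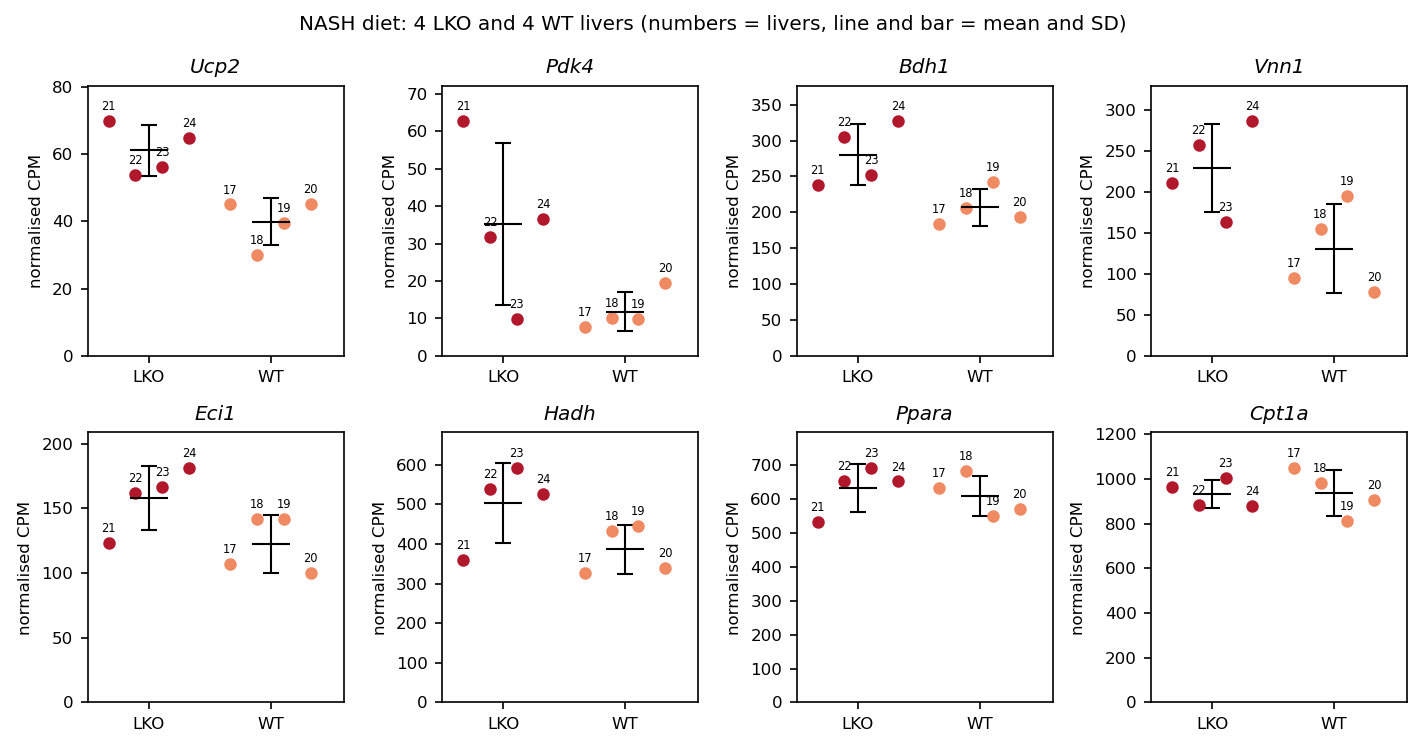
Normalised CPM of 8 members in each NASH-diet liver, LKO_NASH on the left and WT_NASH on the right of each panel, with the mean as a line and the SD as a bar. Ucp2 is the only one of the 8 whose groups do not overlap (53.8 to 69.8 CPM in LKO_NASH, 30.1 to 45.1 CPM in WT_NASH), and liver 21 is the lowest LKO_NASH liver for Bdh1, Eci1, Hadh and Ppara.

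The question of ChREBPα gain was addressed by comparing livers labelled Ad_Chrebpa_HFLMCD with Ad_GFP_HFLMCD. Here 8 of the 32 members rose and none fell, beside 4.95% of 13658 genes called higher (676) and 3.18% called lower (434). The 8 were Ppara, 3 genes of fatty acid activation and import (Slc22a5, Acsl1 and Cpt1a), the acyl-CoA dehydrogenases Acad11, Acadsb and Ivd, and Etfdh, the link from the flavoprotein to the respiratory chain. Their rises were modest, at 1.17-fold to 1.43-fold. A log2 fold change above 0 was found for 28 of 32 members, beside 47.4% of all genes, with a median of 0.15 over the members and -0.01 over all genes. All 4 Ad_Chrebpa_HFLMCD livers lay above all 4 Ad_GFP_HFLMCD livers for 13 members, beside 9.94% of all genes, and below them for 1 member, Ucp2, beside 6.76% of all genes.

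Ppara had 386, 301, 326 and 407 CPM in Ad_Chrebpa_HFLMCD livers 13 to 16, and 259, 266, 227 and 248 CPM in Ad_GFP_HFLMCD livers 9 to 12. The groups did not overlap, and Ppara rose with a log2 fold change of 0.49 ± 0.10 (adjusted p = 0.0173). Slc22a5, which brings carnitine into the cell, had 35.6, 36.1, 40.8 and 40.3 CPM in Ad_Chrebpa_HFLMCD and 27.1, 26.3, 25.5 and 27.2 CPM in Ad_GFP_HFLMCD. It had the lowest adjusted p of the members and rose 1.43-fold (0.51 ± 0.06, adjusted p = 0.00217). Its paralogue Slc22a4, which lies beside it on chromosome 11, was also called (0.76 ± 0.19, adjusted p = 0.036) at 2.52 to 4.02 CPM in Ad_Chrebpa_HFLMCD and 1.57 to 2.30 CPM in Ad_GFP_HFLMCD. On that chromosome 139 of 1126 tested genes (12.3%) were called, beside 4.95% of all genes called higher and 3.18% called lower. Within 2 Mb on either side of Slc22a5 the calls numbered 2 of 38, Fnip1 and the same Slc22a4. The part of position in the rise of Slc22a5 was not tested. Acsl1 had 765, 761, 706 and 598 CPM in Ad_Chrebpa_HFLMCD, and 566, 508, 574 and 461 CPM in Ad_GFP_HFLMCD. These ranges lay next to each other, with liver 16 closest to the Ad_GFP_HFLMCD livers (0.41 ± 0.10, adjusted p = 0.0352).

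Cpt1a had 834, 806, 792 and 800.0 CPM in Ad_Chrebpa_HFLMCD, and 690.5, 657, 692 and 559.8 CPM in Ad_GFP_HFLMCD. The 4 Ad_Chrebpa_HFLMCD livers were close together and all above the Ad_GFP_HFLMCD livers (0.30 ± 0.08, adjusted p = 0.0394). The remaining genes of activation and import did not pass. Cpt2 had a log2 fold change of 0.15 (adjusted p = 0.159), Mlycd, which breaks down the CPT1 inhibitor malonyl-CoA, 0.18 (adjusted p = 0.173), the translocase Slc25a20 0.09 (adjusted p = 0.427) and Acsl5 -0.12 (adjusted p = 0.202).

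Among the dehydrogenases of fatty acids Acad11 alone was called. It had 324, 323, 320.4 and 314 CPM in Ad_Chrebpa_HFLMCD, and 278, 253, 274 and 276 CPM in Ad_GFP_HFLMCD, a small rise against a very small spread (0.23 ± 0.05, adjusted p = 0.0271). Acadl, Acadm and Acadvl, for long, medium and very long chains, also had groups that did not overlap, with log2 fold changes of 0.22, 0.21 and 0.18 and adjusted p of 0.063, 0.0819 and 0.105. DESeq2 called Acadl and Acadm as well as the 8, beside 7.53% of its genes on the higher side. In branched-chain amino acid breakdown, Acadsb had 93.1, 74.8, 86.7 and 92.6 CPM in Ad_Chrebpa_HFLMCD and 70.9, 62.2, 72.4 and 70.6 CPM in Ad_GFP_HFLMCD (0.32 ± 0.08, adjusted p = 0.0423). Ivd had 111, 93.1, 83.8 and 103 CPM in Ad_Chrebpa_HFLMCD and 86.5, 68.1, 71.8 and 67.9 CPM in Ad_GFP_HFLMCD. It was the 1 called member whose groups overlapped, through livers 15 and 9 (0.40 ± 0.10, adjusted p = 0.0459). Acad8 did not pass (0.17, adjusted p = 0.136).

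The later steps of the cycle all lay above 0 but did not pass. The 5 genes of hydration, the second dehydrogenation and thiolysis had log2 fold changes of 0.0069 for Hadh to 0.23 for Echs1 with a median of 0.07, and none was called by edgeR or DESeq2, although Echs1 had an unadjusted p below 0.05. Hadha and Hadhb had 0.07 and 0.08 (adjusted p = 0.483 and 0.462). In the electron transfer group, Etfdh stood apart from its partners. It had 196, 195, 224 and 199 CPM in Ad_Chrebpa_HFLMCD, and 163, 147, 156 and 151 CPM in Ad_GFP_HFLMCD, and it rose 1.3-fold (0.38 ± 0.06, adjusted p = 0.00814). Etfa and Etfb, the flavoprotein's subunits, had 0.07 and -0.01 (adjusted p = 0.596 and 0.948); the differences between these genes were not tested.

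Ketone genes among the members did not pass, with 0.06 for Bdh1 (adjusted p = 0.627) and 0.16 for Acat1 (adjusted p = 0.346), and neither had an unadjusted p below 0.05 or a DESeq2 call. Ucp2 had 137, 170.4, 178 and 157 CPM in Ad_Chrebpa_HFLMCD, and 179, 218, 181 and 194 CPM in Ad_GFP_HFLMCD. The groups did not overlap, though by a narrow margin, and the log2 fold change of -0.28 ± 0.09 did not pass (adjusted p = 0.0842). It was the 1 member that DESeq2 called lower, beside 5.63% of its genes. Pdk4 had 12.8, 24.9, 32.8 and 15.0 CPM in Ad_Chrebpa_HFLMCD, and 11.0, 16.1, 25.6 and 20.1 CPM in Ad_GFP_HFLMCD, with wide overlap (0.22 ± 0.32, adjusted p = 0.707, and below 0 without liver 15).

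How firmly these calls stood differed between genes. Slc22a5 and Etfdh passed in all 8 fits that left out 1 liver, and Ppara in all but that without liver 16 (adjusted p = 0.0509). Ivd passed only without livers 9, 14 or 15, Acad11 only without livers 9, 10 or 14, Acsl1 only without livers 11 or 16, and Cpt1a and Acadsb only without liver 14, with adjusted p up to 0.124, 0.0646, 0.0924, 0.0977 and 0.115 in the same gene order; members called numbered 3 to 8. In 1 fit of all 16 libraries Ppara and Etfdh passed, beside 1.76% of all genes on the higher side, and Slc22a5 had an adjusted p of 0.123. On log2(FPKM + 1) Ppara, Slc22a5, Acsl1, Acad11 and Etfdh passed on the higher side, beside 3.19% of all genes, and Acsl5 on the lower, beside 7.39%. On that scale 436 genes were higher and 1010 lower, against 676 and 434 by edgeR, the median was 0.08 over the members and -0.06 over all genes, and 22 members lay above 0, beside 33.7% of all genes. Acads, Hadha, Hadh, Acaa2, Eci1 and Bdh1 were above 0 by edgeR and below 0 on that scale. Beside these rises, all 10 hepatocyte markers had a log2 fold change above 0 (median 0.21), 1 of them called, Apoa1 (0.33 ± 0.09, adjusted p = 0.0423). All 5 cholangiocyte markers lay below 0 and 3 fell, summing to 118 to 173 CPM in Ad_Chrebpa_HFLMCD and 145 to 321 CPM in Ad_GFP_HFLMCD with none at 0. Their part in the members' values was not tested.

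**Figure D3:**
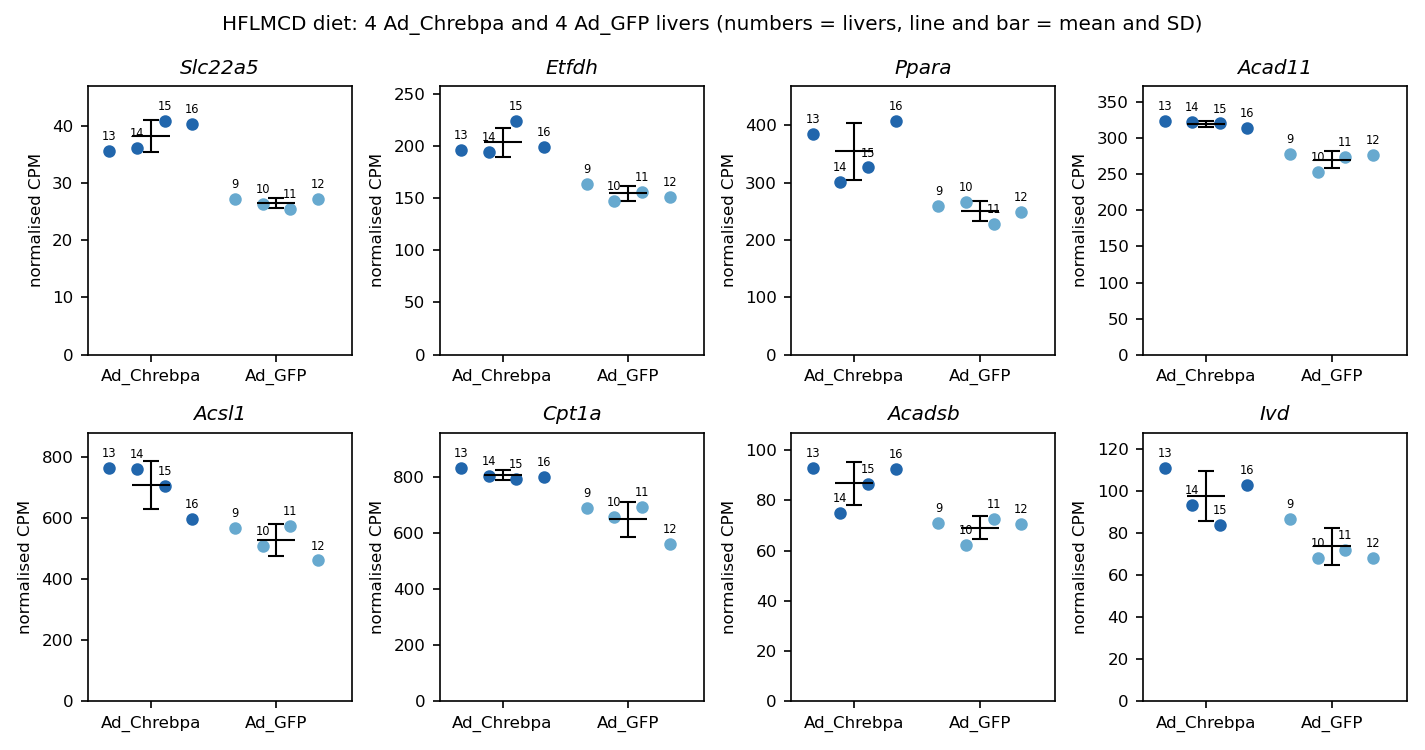
Normalised CPM of the 8 called members in each HFLMCD-diet liver, Ad_Chrebpa_HFLMCD on the left and Ad_GFP_HFLMCD on the right of each panel, with the mean as a line and the SD as a bar. For every gene shown except Ivd the 4 Ad_Chrebpa_HFLMCD livers lie above the 4 Ad_GFP_HFLMCD livers.

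The stretches upstream of the 3 members with the lowest p in this comparison are shown because they rose together. They are the 250 bases before a transcript start in the RefSeq promoter table on GRCm38.p6, each on the strand of its gene. For Ppara, annotated from position 85734910, and for Slc22a5, annotated up to position 53891796, that start lies inside the annotated gene. Ppara lies at chr15:85735526-85735775 on the plus strand, Slc22a5 at chr11:53891704-53891953 on the minus strand and Etfdh at chr3:79628768-79629017 on the minus strand. None of the 3 holds an exact AGGTCA, the hexamer that nuclear receptors such as PPARα and RXR are known to bind, on either strand, so no capitals appear.
Ppara: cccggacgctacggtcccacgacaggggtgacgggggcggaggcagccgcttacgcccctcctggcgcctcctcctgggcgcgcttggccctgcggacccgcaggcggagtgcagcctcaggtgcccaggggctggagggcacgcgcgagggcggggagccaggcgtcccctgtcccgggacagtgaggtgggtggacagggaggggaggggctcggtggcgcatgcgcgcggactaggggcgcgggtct
Slc22a5: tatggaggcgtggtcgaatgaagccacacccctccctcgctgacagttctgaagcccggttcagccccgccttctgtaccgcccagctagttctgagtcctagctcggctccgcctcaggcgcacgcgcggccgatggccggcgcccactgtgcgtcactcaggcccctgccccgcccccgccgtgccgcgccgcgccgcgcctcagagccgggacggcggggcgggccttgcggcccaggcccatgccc
Etfdh: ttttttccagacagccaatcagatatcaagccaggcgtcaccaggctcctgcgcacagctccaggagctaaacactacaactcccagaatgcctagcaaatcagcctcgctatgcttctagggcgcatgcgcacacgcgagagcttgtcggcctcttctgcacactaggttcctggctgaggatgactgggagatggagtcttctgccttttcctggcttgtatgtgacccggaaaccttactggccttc

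RefSeq windows of 250 bases before to 50 after the start were matched by symbol for 28 members, with 31 windows, and not for Vnn1, Acaa2, Decr1 and Acat1. The repeat AGGTCANAGGTCA, the textbook PPARα and RXR element, was searched on both strands with up to 2 mismatches outside N. It matched in 3 members, Echs1, Etfa and Slc25a20, and in 3.86% of all 32851 windows; none of these 3 genes passed in either ChREBPα comparison. The exact AGGTCA, which overlaps that repeat, was found in Acadm, Acadvl, Cpt1a and Echs1 and in 16.26% of all windows. The E-box CACGTG, which reads the same on both strands and resembles each end of the element ChREBP is known to bind, was found in Pdk2 alone of the members and in 7.15% of all windows. The matches to the repeat and the E-box are given in capitals with the bases around them, because they are the only ones among the members. They lie at chr7:140116484-140116512 on the minus strand for Echs1, chr9:55512300-55512328 on the minus strand for Etfa, chr9:108662134-108662162 on the plus strand for Slc25a20 and chr11:95041480-95041509 on the minus strand for Pdk2. The match in Etfa reads on the opposite strand of the gene, and the repeat in the other 2 on the gene's own.
Echs1: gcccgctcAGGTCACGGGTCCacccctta
Etfa: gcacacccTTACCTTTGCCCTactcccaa
Slc25a20: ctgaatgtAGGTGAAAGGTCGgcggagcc
Pdk2: ctcgaggagagcCACGTGtcgaagcgcaag

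Hadha and Hadhb are transcribed away from each other on chromosome 5, with 272 bases between their starts. The 228 bases that both windows share are at chr5:30155003-30155230 on GRCm38.p6, given on the plus strand, that of Hadhb, and shown because a single stretch precedes both subunits of 1 enzyme. It holds no exact AGGTCA on either strand.
Hadha-Hadhb: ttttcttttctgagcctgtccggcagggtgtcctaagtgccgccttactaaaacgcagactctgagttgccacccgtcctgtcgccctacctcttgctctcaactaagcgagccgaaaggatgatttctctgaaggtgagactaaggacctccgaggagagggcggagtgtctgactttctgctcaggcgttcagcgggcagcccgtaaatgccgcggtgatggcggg

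**Figure D4:**
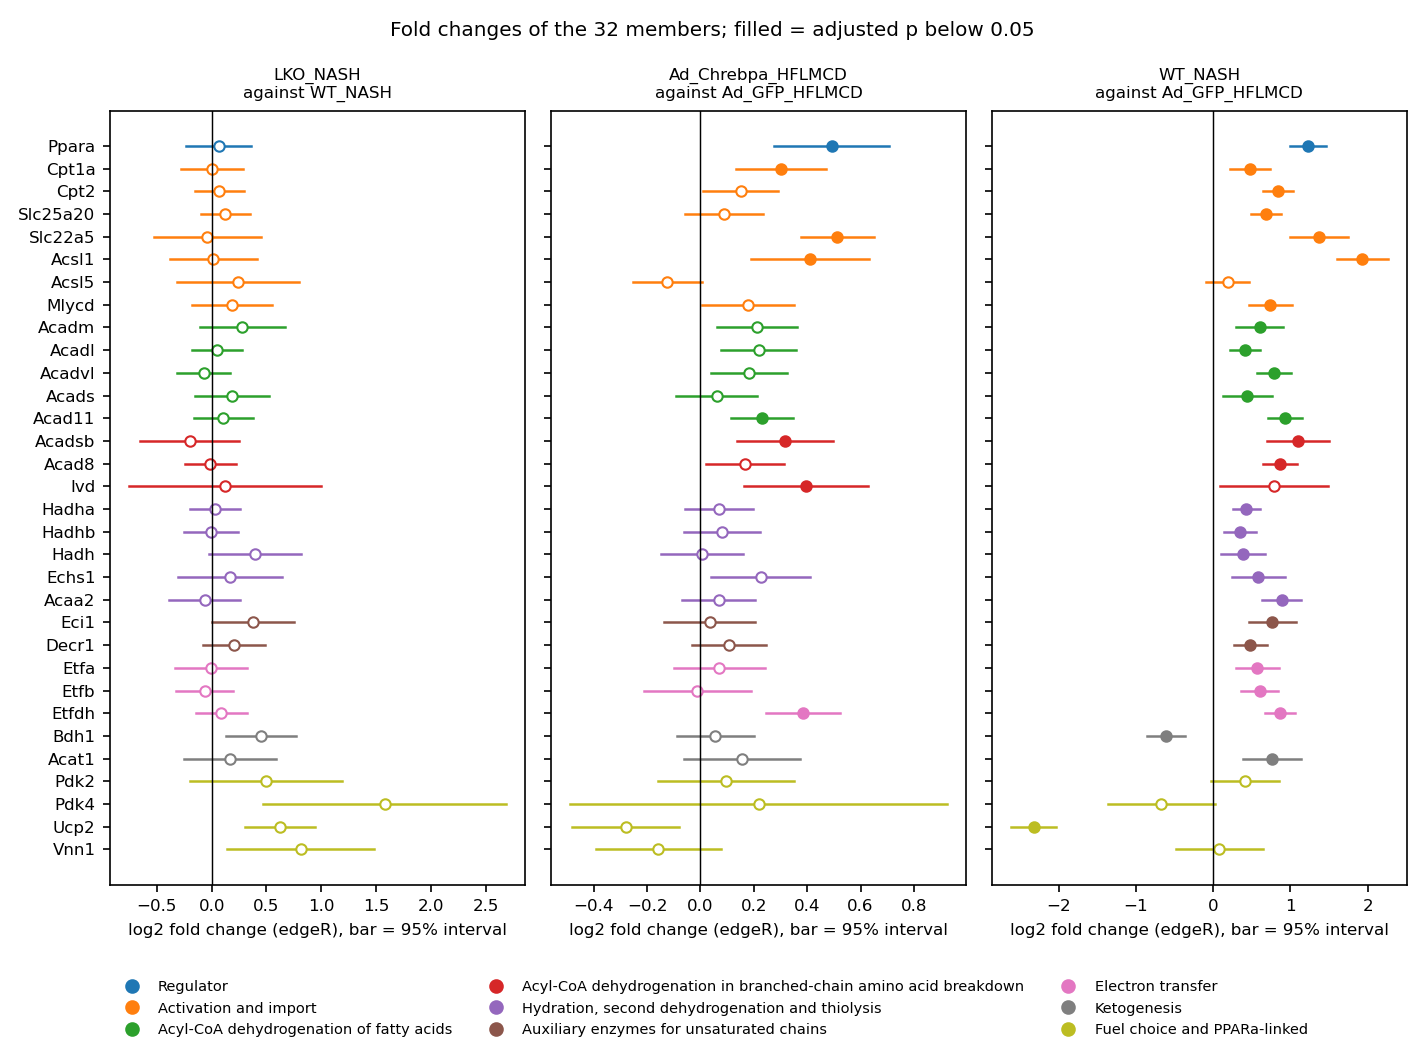
log2 fold change (edgeR) of each of the 32 members with its 95% interval in the 3 comparisons, coloured by role, filled where the adjusted p is below 0.05; each panel has its own scale. No member is filled for LKO_NASH against WT_NASH, 8 are filled on the higher side for Ad_Chrebpa_HFLMCD against Ad_GFP_HFLMCD, and 25 are filled on the higher and 2 on the lower side for WT_NASH against Ad_GFP_HFLMCD.

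The control groups of both experiments were set against each other as well. WT_NASH and Ad_GFP_HFLMCD differ in diet, its length, the viral vector, the floxed alleles and the experiment they belong to, and these cannot be told apart. By edgeR 25 members were higher and 2 lower in WT_NASH, beside 28.2% and 30.9% of 13488 genes, and 29 of 32 had a log2 fold change above 0, beside 49.4% of all genes. The median was 0.60 over the members and -0.01 over all genes. With DESeq2 size factors in place of TMM the counts of members were the same, and their median was 0.61. They were not the same with limma on log2(FPKM + 1), which differs from edgeR in the input values, the scaling, the transform and the test. No TMM scaling between libraries was applied to FPKM. Before TMM the members took 0.765% to 0.952% of expected counts in WT_NASH and 0.764% to 0.818% in Ad_GFP_HFLMCD. After TMM over the 16 libraries they summed to means of 10922 and 6335 CPM. The part of scaling in the differences between the scales was not tested. On log2(FPKM + 1), where 740 genes were higher and 9860 lower (3805 and 4166 by edgeR), the median of all genes shifted to -0.44, and that of the members was -0.04. Members called there were 9 higher and 8 lower, beside 5.49% and 73.1% of all genes, and 15 members lay above 0, beside 12.4% of all genes. Read against the median of all genes, the members thus lay 0.61 above it by edgeR and 0.41 above it on log2(FPKM + 1). The sign turned for 14 members between the scales, and 3 were called with opposite signs, Acadl, Hadha and Hadhb.

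Called higher on both scales were 9 members. Acsl1 averaged 2082 ± 349 CPM in WT_NASH and 527 ± 53.0 CPM in Ad_GFP_HFLMCD (SD, n = 4 each), the widest rise among the members (log2 fold change 1.93 ± 0.15, adjusted p = 5.94e-06, and 1.29 on log2(FPKM + 1)). Slc22a5 averaged 71.2 ± 19.8 CPM in WT_NASH and 26.5 ± 0.83 CPM in Ad_GFP_HFLMCD (1.37 ± 0.17, adjusted p = 9.13e-05, and 0.66). Ppara averaged 609 ± 60.1 CPM in WT_NASH and 250.2 ± 16.9 CPM in Ad_GFP_HFLMCD (1.23 ± 0.10, adjusted p = 9.71e-06, and 0.59). For these 3 genes each WT_NASH liver lay above each Ad_GFP_HFLMCD liver, as was true of every other member called higher by edgeR. The share of all genes without overlap was not computed for this comparison. The other 6 had edgeR log2 fold changes of 1.09 for Acadsb, 0.93 for Acad11, 0.88 for Acaa2, 0.87 for Etfdh, 0.86 for Acad8 and 0.84 for Cpt2, and log2(FPKM + 1) differences of 0.21 to 0.41. Acadvl and Slc25a20 were called by edgeR (0.79 and 0.68, adjusted p = 9.01e-05 and 9.12e-05) but not on log2(FPKM + 1) (0.16 and 0.05, adjusted p = 0.0527 and 0.532). Cpt1a had a log2 fold change of 0.47 ± 0.12 by edgeR (adjusted p = 0.00545) and -0.15 on log2(FPKM + 1) (adjusted p = 0.166), so no direction is given for it.

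Ucp2 and Bdh1 fell on both scales. Ucp2 averaged 40.0 ± 7.08 CPM in WT_NASH and 193 ± 18.2 CPM in Ad_GFP_HFLMCD, a log2 fold change of -2.33 ± 0.13 (adjusted p = 1.74e-06) and -2.90 on log2(FPKM + 1). Bdh1 averaged 207 ± 25.6 CPM in WT_NASH and 305 ± 22.9 CPM in Ad_GFP_HFLMCD (-0.61 ± 0.11, adjusted p = 0.000925, and -1.23). Acat1, on the same path, had 0.76 by edgeR (adjusted p = 0.00337) and 0.11 on log2(FPKM + 1) (adjusted p = 0.528). Pdk4 had -0.67 ± 0.31 by edgeR (adjusted p = 0.0882) and -1.05 on log2(FPKM + 1), where it passed (adjusted p = 0.00481). In this comparison of control groups, 8 of 10 macrophage and Kupffer cell markers also fell by edgeR and 1 rose (median -2.40). They summed to 177 to 358 CPM in WT_NASH and 1313 to 1940 CPM in Ad_GFP_HFLMCD, with none at 0. The 10 hepatocyte markers all rose by edgeR (median 1.14), a median above that of the 32 members. The part of either in the members' values was not tested.

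**Figure D5:**
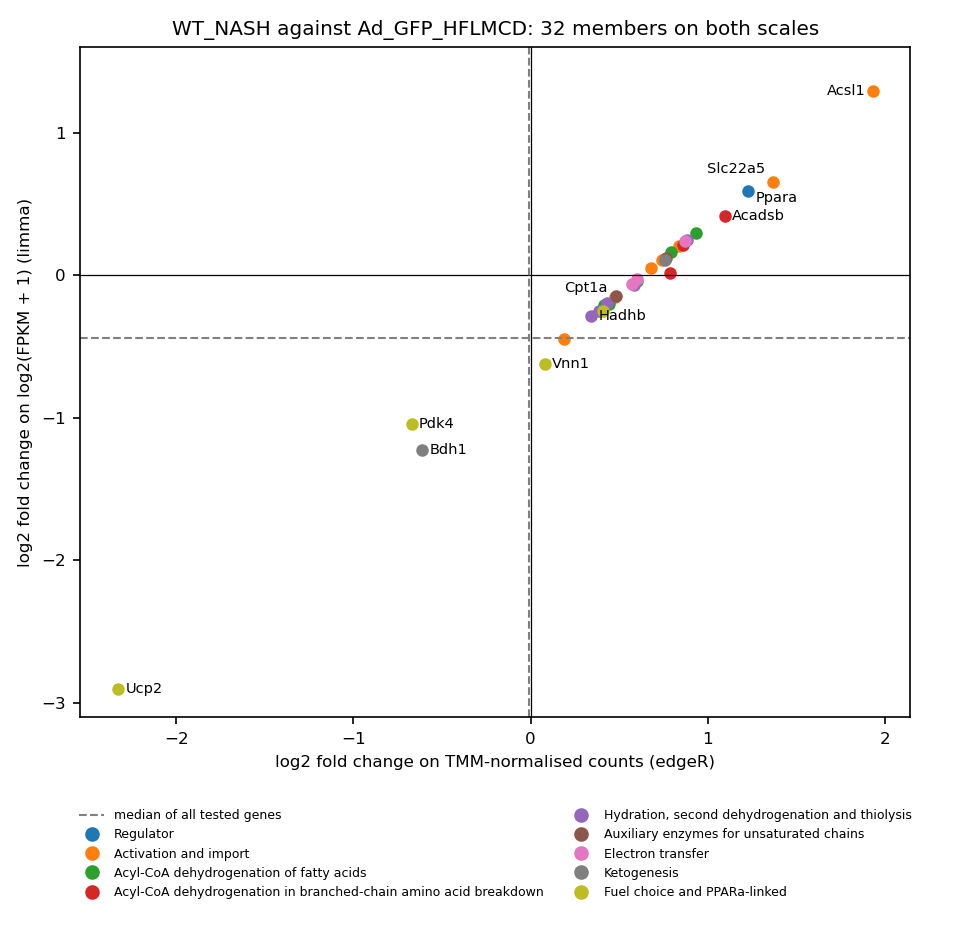
log2 fold change of the 32 members for WT_NASH against Ad_GFP_HFLMCD by edgeR on normalised counts (x) and by limma on log2(FPKM + 1) (y), coloured by role, with dashed lines at the median of all tested genes (-0.01 on x, -0.44 on y). Members to the right of 0 on x but below 0 on y change sign with the scale, as Cpt1a does (0.47 and -0.15), whereas Acsl1, Slc22a5 and Ppara lie above 0 on both and Ucp2 and Bdh1 below 0 on both.

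Neighbouring pathways were followed through 5 further lists, whose members are described by counts and medians beside the medians of all genes given above. In LKO_NASH against WT_NASH no gene of the 5 lists passed by edgeR. At an unadjusted p of 0.05, 5 were on the higher and 1 on the lower side, beside 7.7% and 5.88% of all genes. DESeq2 called 4 higher, Cpt1b, Crat, Acot1 and Acot3, beside 0.607% of its genes. The list of PPARα targets outside mitochondria had 10 of 10 log2 fold changes above 0 with a median of 0.50, against 19 of 25 and 0.14 for other genes of mitochondrial oxidation and ketone bodies, 12 of 15 and 0.14 for branched-chain amino acid breakdown, 10 of 16 and 0.11 for mitochondrial mass and the citric acid cycle, and 6 of 10 and 0.04 for PPARα partners and coactivators.

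In Ad_Chrebpa_HFLMCD against Ad_GFP_HFLMCD, the other genes of mitochondrial oxidation and ketone bodies had 6 higher and 1 lower of 24 tested (median 0.15); over all genes 4.95% were higher and 3.18% lower, which is also the background of the lists that follow. Those with the lowest adjusted p were Eci2, another enoyl-CoA isomerase (0.43 ± 0.06, adjusted p = 0.00558), Slc27a5, a fatty acid and bile acid CoA ligase (0.62 ± 0.10, adjusted p = 0.00718), and Etfbkmt, which methylates the β subunit of the electron-transferring flavoprotein (1.28 ± 0.25, adjusted p = 0.0174). Among 10 PPARα partners and coactivators 2 rose (median 0.17), Ppargc1b, a coactivator of mitochondrial genes (0.86 ± 0.21, adjusted p = 0.0341), and Sirt3, the mitochondrial deacetylase (0.30 ± 0.07, adjusted p = 0.0336). Among 10 PPARα targets outside mitochondria 3 were called higher by edgeR and 0 lower (median 0.53, range -2.37 to 1.52). At an unadjusted p of 0.05, 6 were on the higher and 1 on the lower side, beside 1847 and 1778 of 13658 genes. The called genes were Angptl4, an inhibitor of lipoprotein lipase (0.92 ± 0.22, adjusted p = 0.0338), and the acyl-CoA thioesterases Acot3 (1.52 ± 0.33, adjusted p = 0.0243) and Acot1 (0.90 ± 0.23, adjusted p = 0.0448). Acot3 and Acot1 resemble each other so closely that reads may be split between them. In branched-chain amino acid breakdown 3 of 15 rose (median 0.19), Aldh6a1, Auh and Bcat2, with 0.35, 0.31 and 0.32 (adjusted p = 0.0303, 0.0303 and 0.0388). Mitochondrial mass and the citric acid cycle had none called by edgeR among 16 genes (median 0.01), with 1 higher and 1 lower at an unadjusted p of 0.05 and 1 in each direction by DESeq2.

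In WT_NASH against Ad_GFP_HFLMCD the same 5 lists had edgeR calls of 14 higher and 4 lower of 24, 8 and 0 of 10, 7 and 1 of 10, 12 and 0 of 15, and 10 and 2 of 16, in the order mitochondrial oxidation and ketone bodies, PPARα partners, PPARα targets, branched-chain breakdown, and mitochondrial mass, beside 28.2% higher and 30.9% lower over all genes. Their medians were 0.79, 0.49, 1.58, 0.55 and 0.33. The PPARα partner with the lowest adjusted p was Lpin1, a phosphatidate phosphatase and coactivator (3.21 ± 0.21, adjusted p = 2.61e-06), and among the PPARα targets it was Acot1 (3.36 ± 0.16, adjusted p = 8.89e-07). Slc25a42, the carrier of coenzyme A into mitochondria, had the lowest adjusted p of the oxidation list (1.71 ± 0.09, adjusted p = 1.32e-06), in which Etfbkmt had a larger log2 fold change (2.99). These list values are by edgeR and were not computed on log2(FPKM + 1).

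The comparisons of LKO_NASH with WT_NASH and of Ad_Chrebpa_HFLMCD with Ad_GFP_HFLMCD share no livers. In that order, the log2 fold change for Ppara was 0.06 and 0.49, for Cpt1a 0.00 and 0.30, for Slc22a5 -0.04 and 0.51, for Etfdh 0.09 and 0.38, for Acsl1 0.02 and 0.41, for Acad11 0.11 and 0.23, for Acadsb -0.20 and 0.32, for Ivd 0.12 and 0.40, and for Ucp2 0.62 and -0.28. The differences between these pairs were not tested.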

How the data were processed

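Each of the 16 libraries had 1 table with an expected count, the estimated and often fractional number of reads or fragments of a gene, and an FPKM value, both made by the authors and deposited as they stand, per the file headers. HISAT2 is named without a version per the submitters' processing notes, while the labels name no counting tool, no annotation and no genome build. The tables held 17436 entries. Of these, 26 were named by a transcript, and summing per gene left 17410 genes, of which 17367 matched the RefSeq gene table of GRCm38.p6. The lowest listed FPKM was 0.01, and a gene not listed in a table was taken as 0.

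Expected counts were rounded to whole numbers, filtered with filterByExpr on the 8 libraries of a comparison and scaled by TMM. They were then tested with edgeR 4.0.16 in R 4.3.3 (quasi-likelihood test, no covariate), with Benjamini-Hochberg adjustment over all genes tested and a call at an adjusted p below 0.05. Alternatives were DESeq2 1.42.0, DESeq2 size factors within edgeR, no filter, a minimum mean FPKM of 1, limma 3.58.1 on log2(FPKM + 1) and log2(FPKM + 0.1), 1 fit of all 16 libraries, and each liver left out in turn. In the limma fits no TMM scaling was applied to FPKM. Leaving out livers 19 and 21 together was added after seeing the data. Levels per liver are CPM scaled over all 16 libraries, and levels are compared between genes on FPKM only. The edgeR step was tested on simulated data. Tables were joined with Python 3.11.15 and pandas 2.3.3.

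Depth was 21254937 to 40327264 expected counts per library, with the 10 most abundant genes holding 14.0% to 19.8%. The labels do not say outright that each library is a separate animal, so the p-values cover no more than the spread between these libraries, which may be technical. The members, the 5 further gene lists and the 10 marker lists were chosen with earlier results of these data known. Members chosen for description by rule are Ppara, Cpt1a and Pdk4, with called members up to the 12 of lowest p, or with the 6 of lowest p where fewer than 6 were called. All other members named with values were added by role after their values were seen. In each further list up to 3 called genes of lowest p are named. Some genes are not reported here.

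The marker lists not described in the report had the following edgeR calls, in the order LKO_NASH against WT_NASH, then Ad_Chrebpa_HFLMCD against Ad_GFP_HFLMCD, then WT_NASH against Ad_GFP_HFLMCD. T and NK cells had 0 of 3, 0 of 5 and 5 of 5 called, all lower. B cells had 0 of 2, 0 of 4 and 2 of 4, both lower, and neutrophils 0 of 3, 0 of 3 and 3 of 3, all lower. Sinusoidal endothelium had 0 of 6 in each, and stellate cells 0, 0 and 5 of 6, all lower. Cholangiocytes had 0 of 5 in the first and 2 of 5, both lower, in the last. Erythroid cells had 0 of 5, then 2 higher and 1 lower of 5, then 5 of 5 higher. For LKO_NASH against WT_NASH, unadjusted p below 0.05 was found on the higher side for 2 T and NK, 1 neutrophil, 1 endothelial and 2 stellate markers, and DESeq2 called none of these lists. For Ad_Chrebpa_HFLMCD against Ad_GFP_HFLMCD it was found for 2 stellate markers, both lower, and DESeq2 again called none of the lists at 0. In the second comparison 1 of 10 macrophage and Kupffer cell markers was higher.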

Additional observations from a re-analysis of the deposited data

Results flagged for a closer look

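In 12 of 128 groups of 4 livers, 1 liver's normalised CPM stood far from the other livers of its group by Dixon's criterion at the 95% level, which sets the gap to the nearest liver against the whole range. Chance gives about 1 in 20 such groups, and the livers of a group share their libraries across genes. Liver 21 of LKO_NASH was low for Slc25a20 (142 CPM, others 158 to 159), Acaa2 (617, others 763 to 786), Etfa (222, others 286 to 292) and Mlycd (85.3, others 124 to 127), and it also lay with the WT_NASH livers on principal component 1. Liver 23 of LKO_NASH was low for Acadl (231 CPM, others 275 to 281) and Acadvl (384, others 418 to 421).

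Liver 16 of Ad_Chrebpa_HFLMCD was low for Cpt2 (133 CPM, others 144 to 145) and Hadhb (217, others 242 to 246), and liver 15 was high for Etfdh (224, others 195 to 199). Liver 10 of Ad_GFP_HFLMCD was low for Acadl (166 CPM, others 191 to 195) and Acad11 (253, others 274 to 278), and liver 9 was high for Acat1 (312, others 243 to 254).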

How the results depend on the processing

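No paired analysis was possible because the groups share no replicate number. For LKO_NASH against WT_NASH, genes called were 0 in the reported fit, 151 by DESeq2, 161 in 1 fit of all 16 libraries, 0 to 420 with a liver left out and 1525 without livers 19 and 21. Members called were 1 by DESeq2, 1 in the 16-library fit and 2 without both livers. The members' median was 0.26 on log2(FPKM + 1) and 0.27 on log2(FPKM + 0.1). The log2 fold change of Cpt1a turned to -0.0051 with no filter, -0.0042 by DESeq2 and -0.075 without livers 19 and 21, and ran from -0.058 to 0.050 with a liver left out.

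For Ad_Chrebpa_HFLMCD against Ad_GFP_HFLMCD, 1110 genes were called, against 1902 by DESeq2, 343 in the 16-library fit and 400 to 1722 with a liver left out (400 without liver 16, 1722 without liver 14). Members called were 8, against 2 in the 16-library fit and 3 to 8 with a liver left out. The median was 0.082 on log2(FPKM + 1) and 0.083 on log2(FPKM + 0.1), and Pdk4 ran from -0.058 to 0.44 with a liver left out. For WT_NASH against Ad_GFP_HFLMCD, on both log2(FPKM + 1) and log2(FPKM + 0.1), members called were 17 in place of 27, members above 0 were 15 in place of 29, the median was -0.035 and -0.036, and Cpt1a was -0.15. With a liver left out that median was 0.48 to 0.69. The cause of these shifts was not tested. Members' depth was not low, with at least 160.1 expected counts in every liver.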
